A study of Mus musculus with 10 samples.

Results

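Interferon-stimulated genes (ISGs) are the genes that cells switch on after interferons bind their receptors, and the chromatin at 40 of them was compared in group 2 innate lymphoid cells (ILC2s) of 5 mouse tissues. ILC2s are tissue-resident lymphocytes that release type 2 cytokines. The assay was ATAC-seq: the transposase Tn5 cuts open chromatin, so reads pile up at accessible regions. A region belonged to an ISG when its centre lay inside the gene or when its nearest curated RefSeq transcription start site (TSS) was that of the gene. This gave 103 of the 50039 regions of the count table (mm10), of which 31 were promoters and 72 were distal. Promoters had their centre at most 1000 bp upstream or 100 bp downstream of any curated TSS, so a promoter can lie slightly farther from the TSS to which its distance is given. The whole set of regions comprised 9631 promoters and 40408 distal regions. Assignment by position leaves the gene that a distal region acts on unknown.

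All mice were male C57BL/6 animals 6 weeks old, and no treatment is named in the labels. ILC2s came from the small intestine (SI), the large intestine (LI), lung, pancreas, or bone marrow (BM), and each tissue had 2 libraries. A library was made from 50000 sorted cells of pooled mice, 10 for each intestinal tissue and 16 for each other tissue, so p-values measure the spread between pools. ILC2s of LI, lung, and pancreas were sorted by CD45, CD127, ST2, and CD25, those of BM by ST2 and CD25 on another sorter, and those of SI by KLRG1 and low Thy1 with CD45 and CD127. Tissue and gate therefore cannot be told apart for SI, nor tissue, gate, and sorter for BM. Cell isolation differed too, per the methods of the study. Marrow was flushed, lung and pancreas were digested with collagenase for different times, and intestines were treated with EDTA before a longer digestion. Tissue and isolation therefore cannot be told apart, except between SI and LI. These libraries hold no measure of RNA.

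Type I and type III interferons act through the kinases JAK1 and TYK2 on transcription factors that bind the interferon-stimulated response element (ISRE), a pair of GAAA motifs. Interferon gamma (type II) acts through JAK1 and JAK2 and the GAS element. Many ISGs keep a low, tonic activity without infection. Their products sense foreign nucleic acids, block translation and replication of viruses, or attack the vacuoles of intracellular microbes.

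Of the 40 genes, 38 had at least 1 region and 27 had a promoter region. Oas2 and Ifi44 had no region. Cmpk2, Ddx58, Gbp7, Herc6, Ifih1, and Oasl2 had no promoter region by this window but a region whose centre lay within 1000 bp downstream of the TSS, which counts as distal here. Ifit1, Ifitm1, Ifitm2, and Ifitm3 had only regions farther away, as had Parp9 among the regions counted under it. The region 184 bp downstream of the Dtx3l TSS also lay inside Parp9, within 1000 bp downstream of the Parp9 TSS. That region was counted under Dtx3l and passed no test. The uniquely mapped reads that were kept can undercount near-identical stretches of the Ifit, Ifitm, Gbp, Oasl, and Mx families, so levels within these families are uncertain.

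Total counts per library lay between 10282987 and 32797872, and the median count of the 103 regions lay between 70 (pancreas replicate 2) and 249 (SI replicate 2). Levels are counts per 1000000 (CPM) scaled by TMM, edgeR's trimmed-mean normalization. Promoter regions of the ILC2 genes Gata3, Il2ra, Il7r, Rora, Klrg1, Icos, and Il1rl1 were open in every library, with a summed level of 169 to 266 CPM (7 of 8 listed markers, Thy1 having no promoter region). Il1rl1, which encodes ST2, was lowest in SI at 2.84 and 3.03 CPM. No promoter region was found for the listed markers of B cells, NK cells and ILC1s, ILC3s, mast cells and basophils, or acinar cells. T cell markers (2 of 4) summed to 4.71 to 10.0 CPM, the epithelial marker Cdh1 (1 of 3) had 2.89 to 9.49 CPM, and Tcf4, of the plasmacytoid dendritic cell list (1 of 2), had 26.3 to 53.3 CPM. Of the monocyte and macrophage markers, Csf1r and Lyz2 had none, whereas Spi1 stood at 9.29 and 2.2 CPM in the SI libraries against 0.386 to 3.92 CPM elsewhere, and Cd68 at 16.5 and 15.4 CPM in SI against 7.39 to 11.0 CPM elsewhere. The summed level of these markers was 17.6 to 25.8 CPM in SI and 8.55 to 14.0 CPM in the other tissues. The part of these markers in the SI results below was not tested.

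An ISRE-like match was counted as GAAA, 2 bases of any kind, and GAAA on either strand, within 500 bp around the centre of a region. It was found in 19 of the 31 member promoters (61.3%) and in 4.86% of all promoters, and in 12 of 72 member distal regions (16.7%) against 7.79% of all distal regions. A GAS-like match (TTC, 3 bases, GAA) was found in 7 of 31 member promoters (22.6%) against 9.04% of all promoters, and in 7 of 72 member distal regions (9.72%) against 14.4% of all distal regions. GATA, the core of the site of the ILC2 factor GATA3, was found in 74.2% of member promoters and 55.9% of all promoters, and in 90.3% of member distal regions and 83.1% of all distal regions. Of the 28 ISRE-like matches in member promoters, 22, at 13 genes, lay within 200 bp upstream of the TSS. A match is a description of the letters and not a measured binding site. These shares carry no correction for base composition, and the median GC content was 52.7% in member promoters and 62.4% in all promoters.

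The promoter stretches of 6 ISGs show how these matches are arranged, in GRCm38 (mm10) coordinates, from RefSeq, 5′ to 3′ on the strand of the gene, with the ISRE-like matches in capitals. Oasl1, Rsad2, and Rtp4 are shown because they ranked among the 5 promoters with the smallest p over tissues. Ifit3, with the largest SI difference, and Usp18 and Isg15, which hold several matches and passed no test, were added after their values were seen.
Oasl1, chr5:114922937-114923006, plus strand: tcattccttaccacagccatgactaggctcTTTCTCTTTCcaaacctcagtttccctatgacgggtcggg
Rsad2, chr12:26456533-26456602, minus strand: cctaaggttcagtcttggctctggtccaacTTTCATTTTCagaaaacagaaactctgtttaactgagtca
Rtp4, chr16:23609815-23609918, plus strand: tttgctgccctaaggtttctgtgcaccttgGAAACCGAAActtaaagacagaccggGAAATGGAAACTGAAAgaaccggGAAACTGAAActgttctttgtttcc
Ifit3, chr19:34583343-34583412, plus strand: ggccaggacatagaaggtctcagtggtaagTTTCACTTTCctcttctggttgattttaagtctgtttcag
Usp18, chr6:121245793-121245886, plus strand: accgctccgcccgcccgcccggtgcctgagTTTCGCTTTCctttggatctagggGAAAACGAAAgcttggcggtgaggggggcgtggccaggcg
Isg15, chr4:156200845-156200926, minus strand: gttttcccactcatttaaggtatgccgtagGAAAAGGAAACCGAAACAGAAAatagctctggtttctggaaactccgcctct

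The Rtp4 stretch, which ends at the base before the TSS, held 4 matches, Isg15 held 3, Usp18 held 2, and Oasl1, Rsad2, and Ifit3 held 1 each. Neighbouring matches overlapped in Rtp4 and Isg15. The single matches of Oasl1, Rsad2, and Ifit3 and 1 of those of Usp18 were on the other strand than the gene.

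ISG promoters that differed were mostly higher in SI or lower in lung. Of the 31 member promoters, 12 differed over the 5 tissues (38.7%; quasi-likelihood F test of edgeR, Benjamini-Hochberg adjusted p under 0.05 over all regions), beside 30.9% of all promoters. Against the mean of the other 4 tissues, 9 member promoters were higher in SI (29.0%, beside 5.48% of all promoters) and 0 were lower (beside 3.58%). In lung, 5 were lower (16.1%, beside 2.25%) and 0 were higher (beside 2.04%). At an unadjusted p under 0.05 the counts were 16 higher in SI (beside 11.5% of all promoters) and 11 lower in lung (beside 5.21%). The log2 fold change was above 0 for 27 of 31 promoters in SI, beside 54.6% of all promoters, and below 0 for 25 of 31 in lung, beside 37.6%.

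**Figure D1:**
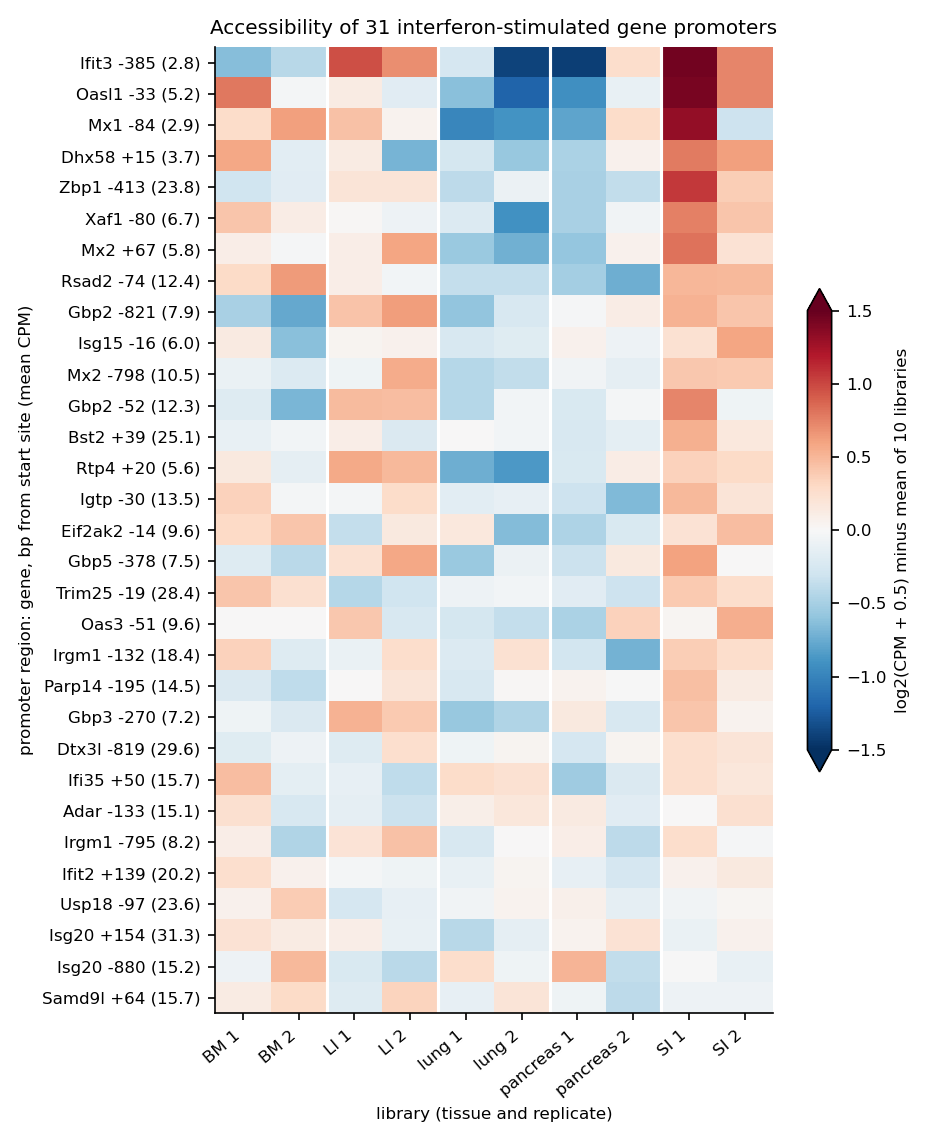
Heat map of the 31 member promoters (rows, named by gene and distance of the centre from the TSS, with the mean CPM in brackets) in the 10 libraries (columns), as log2(CPM + 0.5) minus the mean of the row, with the colour scale cut at 1.5 on either side. Rows are ordered by the SI difference. The SI columns are above the row mean in 27 (replicate 1) and 26 (replicate 2) of 31 rows, and the lung columns in 5 and 9.

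The SI count rested on SI replicate 1 more than on any other library. Without it, Oasl1 alone was called higher in SI (beside 2.27% of all promoters), and the median log2 fold change of the 31 promoters was 0.245 in place of 0.43. The count was 8 without SI replicate 2 (beside 6.65%), 5 without BM replicate 2 (beside 4.11%), and 4 without pancreas replicate 1 (beside 4.52%). The lung count fell to 0 without lung replicate 2, a fit in which 0.104% of all promoters were called lower in lung, and the median was -0.36 in place of -0.31. Without lung replicate 1, BM replicate 1, BM replicate 2, or pancreas replicate 2 the lung count was 2 (beside 1.12% to 1.70%), and without LI replicate 1 or LI replicate 2 it was 3 (beside 1.66% and 2.32%).

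The nucleic acid sensors Zbp1 and Dhx58 and the ligase Trim25 were called higher in SI. Zbp1, a sensor of Z-form nucleic acids that can trigger necroptosis, had its promoter region at chr2:173218540-173220131. Its level was 47.3 and 29.1 CPM in SI, 25.9 and 25.7 CPM in LI, 18.1 and 20.0 CPM in BM, 17.0 and 21.1 CPM in lung, and 16.0 and 17.3 CPM in pancreas. Both SI libraries lay above the other 8, and the log2 fold change of SI was 0.94 (SE 0.17, adjusted p = 0.000944). Dhx58 (LGP2), a regulator of RNA sensing, stood at 6.36 and 5.61 CPM in SI and between 1.96 and 5.43 CPM elsewhere, a log2 fold change of 0.96 (SE 0.30, adjusted p = 0.0278). Dhx58 did not pass the F test over the 5 tissues (adjusted p = 0.0627). Trim25, the E3 ubiquitin ligase of the RIG-I pathway, stood at 36.5 and 33.5 CPM in SI and 37.3 and 33.0 CPM in BM against 20.6 to 27.1 CPM in LI, lung, and pancreas. It was called higher both in SI and in BM, each with a log2 fold change of 0.42 (SE 0.14), with adjusted p of 0.0488 and 0.0341.

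Among the effectors that act on RNA and translation, Oasl1 and Ifit3 were higher in SI. Oasl1, a relative of the oligoadenylate synthetases that represses translation of Irf7 mRNA, had 12.8 and 7.77 CPM in SI, 8.07 and 4.37 CPM in BM, 4.88 and 3.91 CPM in LI, 2.12 and 4.1 CPM in pancreas, and 2.71 and 1.66 CPM in lung (chr5:114922957-114923457). The lower SI library fell just under the higher BM library. Its log2 fold change was 1.49 in SI (SE 0.28, adjusted p = 0.0012) and -1.31 in lung (SE 0.34, adjusted p = 0.0177). Ifit3, a member of the family that binds viral RNA, had 7.03 and 4.08 CPM in SI and 4.88 and 3.95 CPM in LI but at most 2.80 CPM in the other tissues, with an SI log2 fold change of 1.6 (SE 0.42, adjusted p = 0.0115). Its level was the lowest of the member promoters, and libraries of 1 tissue spread widely, with 0.53 and 2.80 CPM in pancreas. The promoters of Ifit2, Oas3, Eif2ak2 (the kinase PKR), Adar, Samd9l, and both promoter regions of Isg20 passed no test.

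Rsad2 (viperin), which turns CTP into a chain terminator of viral RNA synthesis, was high in SI and BM. Its promoter had 16.9 and 16.7 CPM in SI and 14.6 and 18.6 CPM in BM, 12.6 and 11.4 CPM in LI, 9.13 and 9.11 CPM in lung, and 8.13 and 6.90 CPM in pancreas. The ranges of SI and BM overlapped, and both lay above the other tissues. Log2 fold changes were 0.63 in SI (SE 0.17, adjusted p = 0.0147), 0.61 in BM (SE 0.17, adjusted p = 0.0137), and -0.81 in pancreas (SE 0.20, adjusted p = 0.0157), the only member promoter called lower in pancreas.

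The Mx GTPases, which trap viral nucleocapsids, were called lower in lung at 2 of their 3 promoter regions (beside 2.25% of all promoters). The Mx2 region at the TSS had 3.53 and 3.09 CPM in lung and 9.92 and 6.38 CPM in SI, with log2 fold changes of -0.91 (SE 0.27, adjusted p = 0.0369) and 0.71 (SE 0.24, adjusted p = 0.0466). The second Mx2 region, at -798 bp, had 7.45 and 7.76 CPM in lung and 13.7 and 13.5 CPM in SI but did not pass (adjusted p = 0.0945 and 0.0675). Mx1 had 1.02 and 1.10 CPM in lung, from only 26 and 40 counts. Its lung log2 fold change was -1.57 (SE 0.48, adjusted p = 0.0384), whereas its SI libraries disagreed at 6.98 and 1.92 CPM (adjusted p = 0.0902).

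Guanylate-binding proteins (GBPs) and immunity-related GTPases, which respond mainly to interferon gamma and attack pathogen vacuoles, had 3 promoter regions that differed, of Gbp2 and Gbp3. The Gbp2 region at -821 bp from the TSS had 10.2 and 11.8 CPM in LI and 10.9 and 10.1 CPM in SI, 7.36 and 8.09 CPM in pancreas, 4.78 and 6.24 CPM in lung, and 5.19 and 4.19 CPM in BM. No library of LI or SI overlapped with the other tissues. Its log2 fold changes were 0.71 in LI (SE 0.20, adjusted p = 0.0315), 0.61 in SI (SE 0.20, adjusted p = 0.0338), and -0.84 in BM (SE 0.22, adjusted p = 0.0091). The Gbp2 region at the TSS differed over tissues (adjusted p = 0.0457), with 16.5 and 16.4 CPM in LI but 19.9 and 11.2 CPM in SI. Gbp3 differed as well (adjusted p = 0.0391), with 4.55 and 4.97 CPM in lung below every other library and a lung log2 fold change of -0.69 (SE 0.22, adjusted p = 0.049). Gbp5, Igtp, and both Irgm1 promoter regions passed no test.

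Of the remaining promoters, Rtp4 and Xaf1 differed. Rtp4, a chaperone of taste and opioid receptors that is also an antiviral ISG, had 3.02 and 2.71 CPM in lung, 4.48 and 5.82 CPM in pancreas, 5.97 and 4.83 CPM in BM, 6.93 and 6.62 CPM in SI, and 8.19 and 7.69 CPM in LI. The lung libraries lay below and the LI libraries above all others. The log2 fold change was -1.12 in lung (SE 0.24, adjusted p = 0.0057) and 0.72 in LI (SE 0.22, adjusted p = 0.0425). Xaf1, a pro-apoptotic factor, had 11.1 and 8.67 CPM in SI and 3.17 to 8.66 CPM elsewhere, a log2 fold change of 0.78 (SE 0.23, adjusted p = 0.0224). The lower SI library and the highest BM library were nearly level.

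The promoters of the ISG15 system passed no test. Usp18, the protease that removes ISG15 and restrains the type I receptor, had between 19.7 and 30.7 CPM in the 10 libraries, with 22.6 and 24.0 CPM in SI and an SI log2 fold change of -0.02 (SE 0.16, adjusted p = 0.954). Isg15, a ubiquitin-like modifier, had 6.88 and 9.02 CPM in SI and 3.59 to 6.41 CPM elsewhere, with a log2 fold change of 0.55 (SE 0.23) that did not pass (adjusted p = 0.104). Bst2 (tetherin), which holds virions on the cell surface, had 36.0 and 27.7 CPM in SI against 21.0 to 26.6 CPM elsewhere and just missed the threshold (adjusted p = 0.0528). Dtx3l, Parp14, and Ifi35 also passed no test. Mean levels of the member promoters lay between 2.85 CPM (Ifit3) and 31.3 CPM (Isg20).

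In the other tissues few member promoters were called. In BM, 2 of 31 member promoters were higher (Rsad2 and Trim25, 6.45%), beside 27.4% of all promoters, and 1 was lower (Gbp2, 3.23%), beside 4.55%. In LI, 2 were higher (Gbp2 and Rtp4, beside 1.65%) and 0 lower (beside 1.8%). The LI count was 0 under library size alone, thinning, or GC and width correction, and without BM replicate 2, pancreas replicate 1, or either LI library, 1 without either lung library, and 5 without SI replicate 1 (beside 3.33%). In pancreas, 0 were higher (beside 1.82%) and 1 was lower (beside 1.8%). The median log2 fold change of member promoters, with that of all promoters, was 0.05 with 0.25 in BM, 0.11 with -0.15 in LI, -0.31 with 0.05 in lung, -0.24 with -0.16 in pancreas, and 0.43 with 0.03 in SI. Scaling by library size alone moved the median of all promoters to 0.20 in SI and 0.23 in lung, and the member median then stood 0.40 above it in SI and 0.36 below it in lung, as with TMM (0.40 and 0.36). After removal of the GC and width trends the gaps were 0.41 and 0.26, the LI gap moved from 0.26 to 0.0952, and the BM gap from -0.20 to -0.0776. Member promoters had a median GC content of 52.7% and a median level of 12.3 CPM, and all promoters 62.4% and 26.1 CPM.

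By library, the median of the 31 promoters relative to the mean of 10 libraries, less that of all promoters, was 0.42 and 0.17 in SI, 0.20 and 0.27 in LI, -0.10 and -0.23 in BM, -0.28 and -0.18 in lung, and -0.18 and 0.06 in pancreas on the log2 scale. Every library of SI and LI stood above every library of lung and BM in these values, which carry no GC or width correction.

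**Figure D2:**
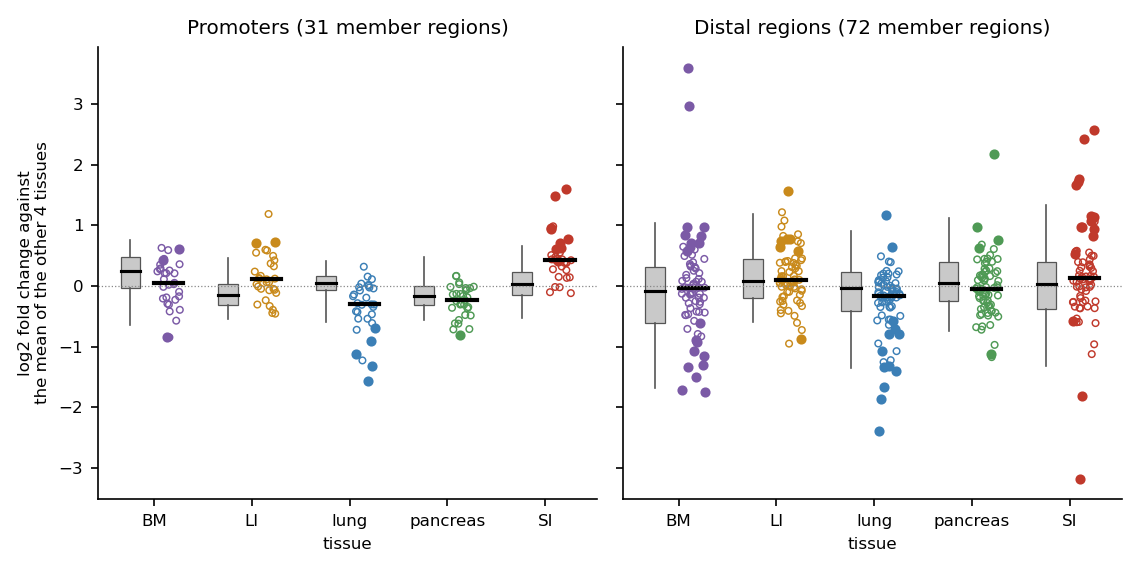
Log2 fold change of each tissue against the mean of the other 4 for the 31 member promoters (left) and the 72 member distal regions (right). Coloured points are member regions, filled where the adjusted p was under 0.05, and thick black lines are their medians. Grey boxes give the quartiles, lines inside them the median, and whiskers the 5th and 95th percentiles of all tested regions of the class. Member promoters lie above the box median in SI (0.43 against 0.03) and below it in lung (-0.31 against 0.05), and distal medians lie between -0.16 (lung) and 0.13 (SI).

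Distal regions of ISGs were called in every tissue and in both directions. Of 72 member distal regions 27 differed over the tissues (37.5%), beside 47.3% of all distal regions. Higher calls numbered 13 in SI (18.1%, beside 13.4%), 10 in BM (13.9%, beside 11.9%), 6 in LI (8.33%, beside 10.5%), 4 in pancreas (5.56%, beside 9.8%), and 2 in lung (2.78%, beside 7.61%). Lower calls numbered 11 in lung (15.3%, beside 8.17%), 10 in BM (13.9%, beside 20%), 3 in SI (4.17%, beside 11.8%), 1 in LI (1.39%, beside 1.14%), and 1 in pancreas (1.39%, beside 2.19%). The SI count was 7 without SI replicate 1 (beside 7.52% of all distal regions), and the lung count of lower regions was 5 without lung replicate 1 (beside 4.66%) and 0 without lung replicate 2 (beside 0.587%). The 10 higher in BM became 2 without BM replicate 1 (beside 4.68%) and 5 without BM replicate 2 (beside 7.09%). The 10 lower in BM became 5, 3, and 6 without BM replicate 1, BM replicate 2, and pancreas replicate 2 (beside 9.33%, 11.1%, and 17.7%).

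Near a start site, the clearest difference was at Oasl2, which encodes a ubiquitin-like oligoadenylate synthetase relative. The region, centred in an exon 223 bp downstream of the TSS (chr5:114896886-114897429), had 24.5 and 24.0 CPM in SI, 10.7 and 13 CPM in LI, 9.84 and 9.71 CPM in BM, 5.72 and 4.64 CPM in lung, and 3.42 and 7.01 CPM in pancreas. The SI libraries nearly coincided and lay far above the rest. The log2 fold change was 1.71 in SI (SE 0.20, adjusted p = 2.39e-05), -1.08 in lung (SE 0.24, adjusted p = 0.00713), and -1.12 in pancreas (SE 0.26, adjusted p = 0.00983), and the pancreas call was lost without pancreas replicate 1. The smallest log2 difference of SI from another tissue was 1.02. Oasl1 lies next to Oasl2, and both were called higher in SI and lower in lung.

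At Rsad2 the 3 distal regions were called lower in lung (beside 8.17% of all distal regions), and 2 of them higher in SI (beside 13.4%). The region at -3811 bp from the TSS, with 2 ISRE-like matches, had 8.62 and 4.60 CPM in SI, 5.32 and 3.74 CPM in LI, and 0.80 to 2.37 CPM elsewhere, with log2 fold changes of 1.67 in SI (SE 0.29, adjusted p = 0.000645) and -1.66 in lung (SE 0.37, adjusted p = 0.00693). The intronic region 1614 bp downstream had 6.74 and 7.14 CPM in SI and 1.69 and 1.08 CPM in lung, with log2 fold changes of 1.07 (SE 0.27, adjusted p = 0.00834) and -1.86 (SE 0.33, adjusted p = 0.00159). A further intronic region at 3291 bp was lower in lung (1.61 and 0.939 CPM, log2 fold change -1.31, SE 0.41, adjusted p = 0.042) and higher in BM (0.97, SE 0.35, adjusted p = 0.0423). None of these 3 lung calls passed without lung replicate 2. Cmpk2, the nucleotide kinase that lies next to Rsad2 and supplies CTP, was higher in BM 306 bp downstream of its TSS (28.0 and 30.8 CPM, log2 fold change 0.58, SE 0.19, adjusted p = 0.0245), while its SI libraries differed, at 33.2 and 19.8 CPM.

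The 3 regions nearest to Ifit1 lay inside Ifit1bl1, a related gene next to it, and each had a pattern of its own. The region 9645 bp from the Ifit1 TSS, with 1 ISRE-like match, had 5.34 and 6.76 CPM in SI, 1.31 and 3.82 CPM in LI, and at most 1.51 CPM elsewhere (SI log2 fold change 2.56, SE 0.42, adjusted p = 0.000391). The region at 15759 bp had 12.1 and 4.60 CPM in BM against 0.314 to 1.06 CPM elsewhere, from only 8 to 22 counts (BM log2 fold change 3.60, SE 0.39, adjusted p = 9.17e-06). The region at 21386 bp had 6.45 and 6.97 CPM in SI and 6.41 and 6.26 CPM in BM, and was called higher in both (adjusted p = 0.0136 and 0.0212). In lung it had 2.35 and 1.35 CPM and was lower (log2 fold change -1.40, SE 0.30, adjusted p = 0.00543).

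The Ifitm genes encode membrane proteins that block viral fusion. Of their 5 regions on chromosome 7, 3 were higher in SI (beside 13.4% of all distal regions). The region 11283 bp from the Ifitm3 TSS (chr7:140999106-140999817) had 31.6 and 13.5 CPM in SI, 9.50 and 9.95 CPM in LI, 8.55 and 7.34 CPM in lung, 5.24 and 10.7 CPM in pancreas, and 3.47 and 3.08 CPM in BM. Its log2 fold change was 1.75 in SI (SE 0.26, adjusted p = 0.000147) and -1.72 in BM (SE 0.33, adjusted p = 0.00103). Both SI libraries lay above all others, though far from each other. The region 13863 bp from Ifitm1 had 15.6 and 13.9 CPM in SI, 12.1 and 14.1 CPM in LI, 9.66 and 9.38 CPM in pancreas, 6.41 and 5.84 CPM in BM, and 4.63 and 3.56 CPM in lung, and was called higher in SI (0.98, SE 0.18, adjusted p = 0.00102) and LI (0.77, SE 0.19, adjusted p = 0.0132) and lower in lung (-1.34, SE 0.21, adjusted p = 0.000668) and BM (-0.60, SE 0.20, adjusted p = 0.0329). The region at 19410 bp had 11.0 CPM in SI replicate 1 but 2.58 CPM in replicate 2. Its SI log2 fold change of 2.43 (SE 0.40, adjusted p = 0.000403) became 1.00, not past the threshold, without SI replicate 1. The region 1202 bp from Ifitm2 was lower in lung (14.8 and 13.8 CPM, log2 fold change -0.70, SE 0.21, adjusted p = 0.039), with 30.6 and 15.5 CPM in SI, and that at 1580 bp from Ifitm3 was higher in BM (0.70, SE 0.22, adjusted p = 0.0255).

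Distal regions of the sensors were called in LI, BM, SI, and lung. Ifih1 encodes MDA5, a sensor of long double-stranded RNA. Its intronic region at 10894 bp had 16.0 and 12.4 CPM in LI, 6.89 and 10.6 CPM in pancreas, 3.47 and 8.22 CPM in SI, 2.78 and 4.17 CPM in lung, and 2.35 and 3.40 CPM in BM (LI log2 fold change 1.57, SE 0.27, adjusted p = 0.00126). The intronic region at 27181 bp had 6.31 and 3.17 CPM in BM and 0.157 to 1.29 CPM elsewhere (BM log2 fold change 2.97, SE 0.39, adjusted p = 3.66e-05). The levels outside BM came from only 4 to 22 counts. The region was also called lower in lung (-2.39, SE 0.56, adjusted p = 0.00978), from 4 and 11 counts. The Ifih1 region 318 bp downstream of the TSS had 34.7 to 47.3 CPM in the 10 libraries and passed no test (adjusted p over tissues = 0.45). Trim25 had a region at -5623 bp with 12.9 and 17.9 CPM in SI, 12.7 and 14.4 CPM in LI, and 5.60 to 7.55 CPM elsewhere, called higher in SI (0.97, SE 0.18, adjusted p = 0.00121) and LI (0.74, SE 0.19, adjusted p = 0.0186) and lower in lung (-0.79, SE 0.21, adjusted p = 0.0183). The region 24937 bp downstream of the Trim25 TSS was also higher in SI (0.52, SE 0.17, adjusted p = 0.0335). A region at -10993 bp from Zbp1, inside Pmepa1, was higher in lung (26.0 and 27.1 CPM against 12.8 to 20.0 CPM elsewhere, log2 fold change 0.64, SE 0.15, adjusted p = 0.0111), a call that did not pass without either lung library. Ddx58, which encodes RIG-I, had 35.2 to 48.9 CPM at 435 bp downstream of its TSS and passed no test.

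The region with the smallest p of all 103 was low in SI. It lay at -13109 bp from Gbp3, inside Gbp7 (chr3:142546677-142547194), and had 1.20 and 1.15 CPM in SI, 3.92 and 4.43 CPM in LI, 10.7 and 9.62 CPM in BM, 16.6 and 9.69 CPM in lung, and 23.1 and 22.8 CPM in pancreas. The log2 fold change was -3.17 in SI (SE 0.28, adjusted p = 2.27e-06) and 2.18 in pancreas (SE 0.19, adjusted p = 3.59e-06). The region was also called higher in lung (1.17, SE 0.20, adjusted p = 0.00111) and BM (0.71, SE 0.21, adjusted p = 0.016). In LI it was called lower (-0.88, SE 0.24, adjusted p = 0.0269). It held no ISRE-like match. The region at -9618 bp from Gbp3 had 10.1 and 13.6 CPM in LI, 11.0 and 14.3 CPM in pancreas, and 4.36 and 4.37 CPM in BM, where it was lower (-1.16, SE 0.22, adjusted p = 0.00106). The Gbp3 region 210 bp downstream of the TSS had 38.1 to 52.2 CPM. The other distal GBP regions passed no test, and of the Irgm1 regions that at 14841 bp was higher in BM (48.5 and 23.9 CPM, log2 fold change 0.64, SE 0.21, adjusted p = 0.0303).

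Parp9 and Dtx3l are partners in an ADP-ribosylating ubiquitin ligase complex. Of their 4 distal regions, 2 were called higher in SI (beside 13.4% of all distal regions) and 1 higher in LI (beside 10.5%). In lung 1 was lower (beside 8.17%), and in BM 1 was lower (beside 20%). The region at -19321 bp from Parp9, with 1 ISRE-like match, had 16.2 and 13.8 CPM in SI, 11.9 and 17.1 CPM in LI, and 5.80 to 9.64 CPM elsewhere, and was higher in SI (0.82, SE 0.19, adjusted p = 0.00473) and LI (0.77, SE 0.19, adjusted p = 0.0161) and lower in lung (-0.80, SE 0.21, adjusted p = 0.0192). The region at -13674 bp from Dtx3l was higher in SI (12.4 and 15.7 CPM, log2 fold change 1.14, SE 0.28, adjusted p = 0.00678), although 1 of the LI libraries reached 17.5 CPM. The region at -32926 bp from Parp9 was lower in BM (1.03 and 1.06 CPM, -1.34, SE 0.47, adjusted p = 0.0371). Ifi35 had a region 723 bp downstream of its TSS that was higher in SI (8.43 and 6.44 CPM, log2 fold change 1.16, SE 0.29, adjusted p = 0.00868), while its promoter passed no test.

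Usp18 and Samd9l gave the other distal regions that were low in SI. The region at -17385 bp from Usp18 had 1.73 and 0.732 CPM in SI, 2.18 and 2.78 CPM in LI, and 4.03 to 5.72 CPM elsewhere (SI log2 fold change -1.81, SE 0.35, adjusted p = 0.00135). It was called higher in BM (0.84, SE 0.28, adjusted p = 0.0309) and pancreas (0.97, SE 0.29, adjusted p = 0.0415). The intronic region 1983 bp into Samd9l, an inhibitor of translation, had 7.66 and 10.6 CPM in SI and 16.0 to 18.6 CPM in LI and pancreas (SI log2 fold change -0.57, SE 0.19, adjusted p = 0.041), a call that did not pass under library size alone, thinning, GC and width correction, or without SI replicate 1 or most other libraries. Of the 7 distal Samd9l regions, those at 14563, 15225, and 55479 bp were lower in BM, with log2 fold changes of -1.08, -0.90, and -0.93. The region at -15997 bp from Mx1, inside Fam3b, was higher in BM (8.66 and 7.09 CPM, 0.97, SE 0.23, adjusted p = 0.00494). Distal regions of Adar, Ddx58, Dhx58, Gbp2, Gbp5, Gbp7, Herc6, Ifit2, Isg20, Mx2, Oas3, and Parp14 passed neither the F test nor a test of 1 tissue.

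**Figure D3:**
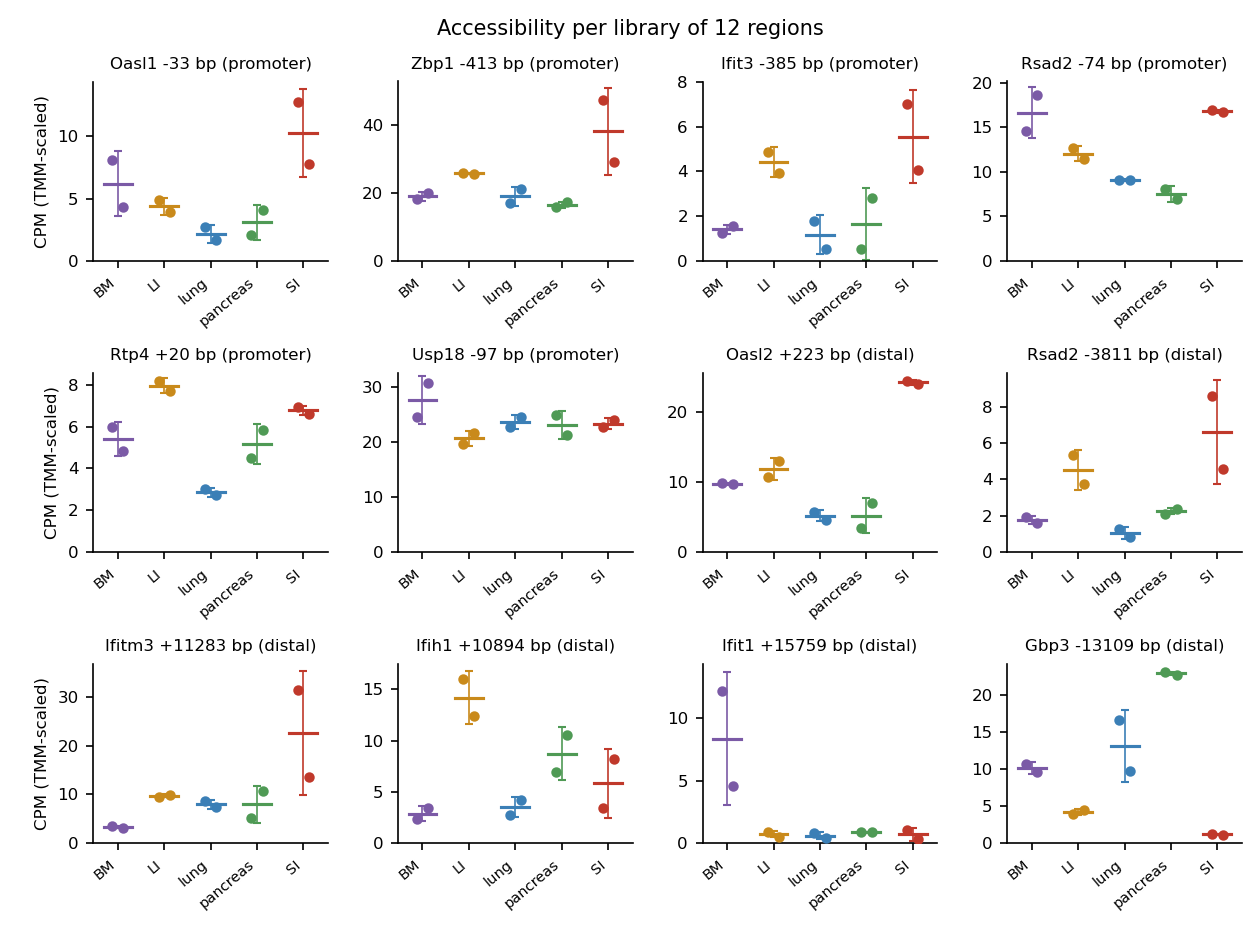
Accessibility (TMM-scaled CPM, from 0) of 12 member regions, with 1 point per library, the mean of the 2 libraries as a line, and 1 SD as error bars. The means of Oasl1, Zbp1, Ifit3, Oasl2, Rsad2 at -3811 bp, and Ifitm3 are highest in SI, those of Rtp4 and Ifih1 in LI, that of Ifit1 in BM, and that of Gbp3 in pancreas, and the Usp18 promoter stays between 19.7 and 30.7 CPM.

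By the stricter rule that a tissue must differ from each of the other 4 at an unadjusted p under 0.05, 7 of the 103 regions were highest in 1 tissue (6.80%, beside 11.3% of all regions) and 9 were lowest in 1 tissue (8.74%, beside 12.7%). Those highest in SI were the Zbp1 promoter, Oasl2 at 223 bp, Ifitm3 at 11283 bp, and Ifitm1 at 19410 bp. Ifit1 at 15759 bp and Ifih1 at 27181 bp were highest in BM, and Gbp3 at -13109 bp was highest in pancreas. Those lowest in lung were the Rtp4 promoter, Rsad2 at 1614 and 3291 bp, Ifitm1 at 13863 bp, and Ifit1 at 21386 bp. Ifitm3 at 11283 bp and Samd9l at 14563 bp were lowest in BM, and Usp18 at -17385 bp and Gbp3 at -13109 bp were lowest in SI. With adjusted p in each of the 4 contrasts, the counts were 4 and 3.

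**Figure D4:**
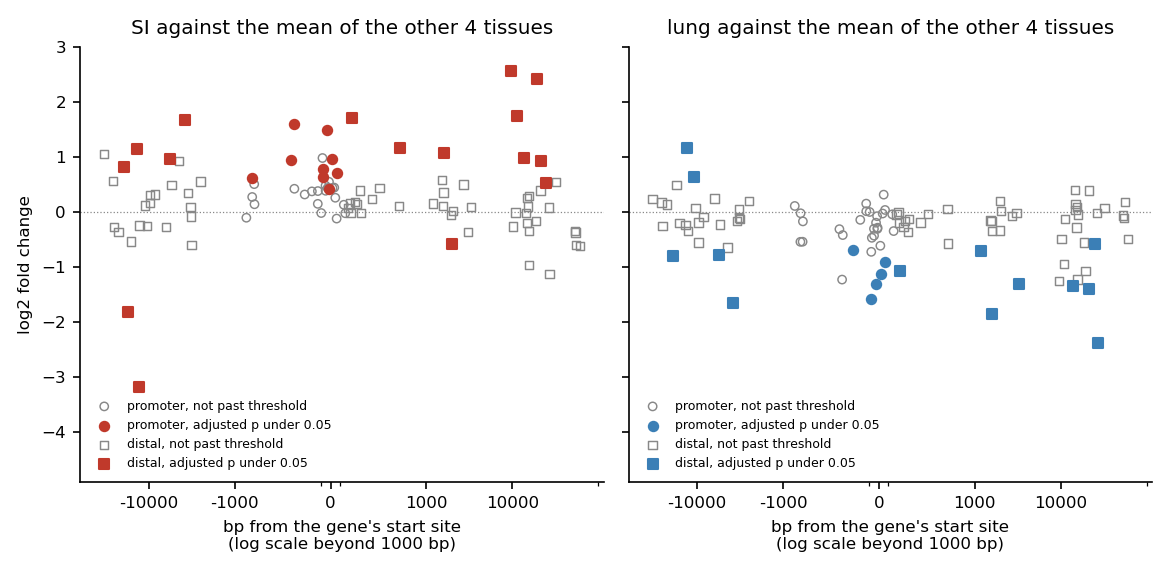
Log2 fold change of SI (left) and lung (right) against the mean of the other 4 tissues for all 103 member regions, by distance from the TSS in bp (linear within 1000 bp, log scale beyond). Circles are promoters and squares distal regions, filled where the adjusted p was under 0.05. In SI 22 filled points lie above 0 and 3 below it, the lowest at -3.17, and in lung 2 lie above 0 and 16 below it.

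Member promoters with and without an ISRE-like match were both called higher in SI. Of the 19 promoters with a match 4 were called higher in SI (21.1%) and of the 12 without one 5 were (41.7%), and the median SI log2 fold changes were 0.44 and 0.34. In lung the medians were -0.35 with and -0.06 without a match, with 3 (15.8%) and 2 (16.7%) promoters called lower. The shares lower in lung among all other promoters were 4.68% with and 2.09% without a match, with medians of -0.007 and 0.055. Among all other promoters, 9.80% of 449 with a match and 5.19% of 9149 without one were called higher in SI, with median log2 fold changes of 0.07 and 0.03. Among other distal regions these shares were 21.6% of 3135 and 12.7% of 37145, with medians of 0.17 and 0.02. These shares describe regions that share libraries and base composition and were not tested. A missing match refers to the 500 bp window alone. The window of the Zbp1 promoter, a region 1591 bp wide centred at -413 bp, stopped short of the TSS. Gbp2 at -821 bp and Mx2 at 67 bp were called higher in SI without a match, but the other promoter region of each gene held 1.

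**Figure D5:**
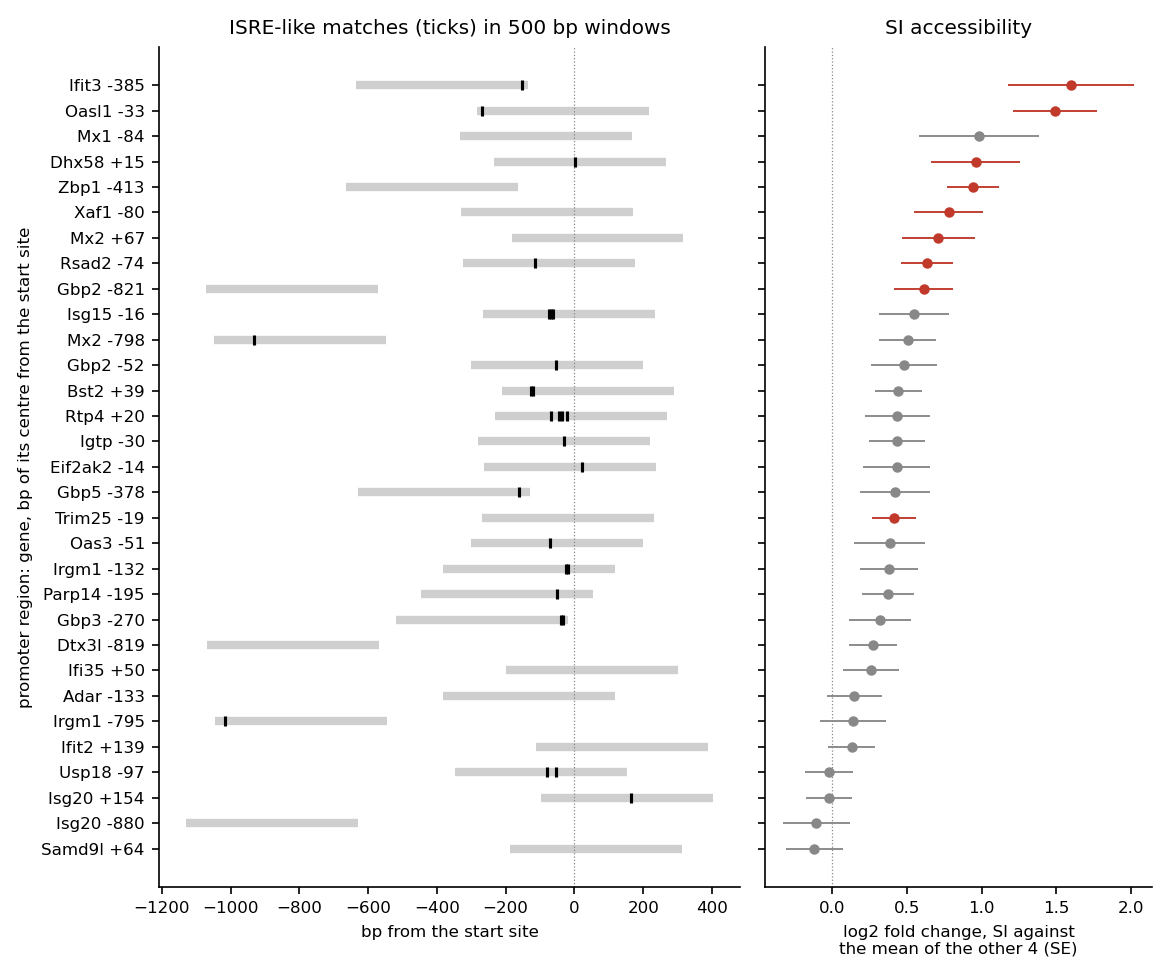
ISRE-like matches (ticks) in the 500 bp window (grey bars) of each of the 31 member promoters by distance from the TSS in bp (left), and the SI log2 fold change against the mean of the other 4 tissues with its SE (right, red where the adjusted p was under 0.05). Most ticks lie just upstream of the TSS. Promoters with ticks range from the top (Ifit3, 1.6) to near the bottom (Usp18, -0.02). Zbp1, Xaf1, and Trim25 are higher in SI without a tick, and the Zbp1 window, centred at -413 bp, stops short of the TSS.

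The genes that carry the interferon signal were a second list, of 26 receptors, kinases, transcription factors, inhibitors, and adaptors. They had 22 promoter and 144 distal regions, at 21 and 24 of the genes. Of the promoters 6 differed over tissues (beside 30.9%), 1 of 22 was higher in SI (beside 5.48%), 7 were higher in BM (beside 27.4%), and 2 were lower in BM (beside 4.55%), and the median SI log2 fold change was 0.12. The 1 promoter higher in SI was that of Irf5, a transcription factor of inflammatory genes, with mean levels of 18.3 CPM in SI, 12 CPM in LI, 10.4 CPM in pancreas, 7.73 CPM in lung, and 6.6 CPM in BM (log2 fold change 1.03, adjusted p = 0.00268). Stat2 had tissue means of 39.4 to 57.7 CPM at its promoter (adjusted p over tissues = 0.123), and Irf9 was lower in pancreas (29.5 CPM against 45 to 48.7 CPM).

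Distal regions of the signalling genes were called in both directions in SI, 24 of 144 higher (beside 13.4% of all distal regions) and 19 lower (beside 11.8%). Of 31 distal regions of the IRF genes other than Irf9, 12 were higher and 3 lower in SI, with a median log2 fold change of 0.54, and 11 were lower in BM (beside 20%). The 12 higher in SI were at Irf1, Irf2, Irf5, and Irf7, and the 3 lower were all at Irf8, which had none higher. The region 702 bp downstream of the TSS of Irf7, which amplifies type I interferon and is itself an ISG, had a mean of 82.0 CPM in SI and 41.9 to 49.2 CPM in the other tissues (log2 fold change 0.89, adjusted p = 0.00112). Of the 20 distal regions of the receptor genes 3 were higher in SI and 0 lower. Of the 38 of the kinase genes 2 were higher in SI, at Jak2, and 11 were lower, all of them at Jak1. Distal regions of the inhibitor genes were split, with 3 higher and 5 lower of 32 in SI, and the region 30847 bp from Socs1, the inhibitor of JAK kinases, fell to a mean of 6.33 CPM in SI from 21.3 to 71.0 CPM elsewhere (log2 fold change -2.66, adjusted p = 5.57e-07).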

How the data were processed

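ATAC-seq was made from 10 libraries of sorted ILC2s, 2 for each of 5 tissues. Per the labels and the methods of the study, the authors checked reads with FastQC 0.11.9, mapped them to mm10 with Bowtie2 2.2.9, kept unique reads, used SAMtools 1.8, called peaks per library with MACS2 2.1.1, kept peaks present in both replicates, merged them over tissues, and counted reads with bedtools. The deposited table holds raw counts, without normalization. Handling of duplicates and of the Tn5 offset is not given in the sources used here. PCR reads are not independent molecules.

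Groups came from the sample labels. Testing covered 49981 regions (minimum 1 count), fitted in edgeR 4.0.16 (R 4.3.3; TMM, glmQLFit, glmQLFTest) with tissue as the factor and 10 libraries in 1 fit. Each tissue was compared with the mean of the other 4 and with each other tissue, and all p-values were adjusted (Benjamini-Hochberg) over all regions. The fit was tested on simulated data. Standard errors are the log2 fold change divided by the root of the F statistic. Classes, nearest TSS, and sequences come from curated RefSeq transcripts of GRCm38.p6, with start coordinates read as 0-based.

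Regions named are the promoter region of each gene with most counts, the 3 largest called differences per tissue and direction, the 5 smallest p per class, and all regions highest or lowest in 1 tissue. Others were named after their values were seen. The members and lists were chosen with earlier results of these data known. Alternatives were library size alone, DESeq2 1.42.0 or its size factors, a filter at 10 counts in 2 libraries, thinned counts, GC and width trends removed (loess), a block for the replicate number, and leaving out single libraries in turn. Replicate numbers were not used as pairs in the main fit, and pairing was not tested. Correlations of deviations between tissues ran from -0.218 to 0.196. They were 0.16 to 0.20 among LI, lung, and SI and negative between pancreas and every other tissue. Results of 1 listed gene are not reported here.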

Additional observations from a re-analysis of the deposited data

How the results depend on the processing

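Leaving out a library gave its tissue 1 library, assumed to vary like the other tissues. The shallowest library (pancreas replicate 2, 10282987 counts) had a median of 70 counts over the member regions, which limits small differences. Of 442 values of 26 named differences, 0 reversed and 378 passed the threshold. Over 34 counts and medians, 537 of 680 alternative values stayed within 1.5 times the count or the spread between replicates. DESeq2 size factors in edgeR, the filter at 10 counts in 2 libraries, members by nearest TSS alone, and promoters within 1000 bp on both sides moved none of them past these limits.

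Scaling by library size alone gave 1 higher in BM, 0 higher in LI, 3 lower in lung, 3 lower in pancreas, and 16 higher in SI among promoters, with medians of 0.60 in SI, -0.0321 in LI, -0.13 in lung, and -0.37 in pancreas. Among distal regions it gave 1 higher in LI, 6 lower in lung, 1 higher and 3 lower in pancreas, and 20 higher in SI, with medians of 0.30 in SI, 0.021 in lung, -0.0336 in LI, -0.12 in BM, and -0.17 in pancreas. DESeq2 on 10 libraries gave 1 promoter lower in LI, 2 promoters lower in pancreas, and 3 distal regions lower in pancreas. Thinned counts gave 1 promoter higher in BM, 0 higher in LI, and 2 lower in lung, and 5 distal regions lower in BM, 0 lower in LI, and 2 lower in pancreas. With GC and width trends removed, 0 promoters were lower in BM, 0 higher in LI, and 2 lower in lung. Distal regions were then 5 lower in BM, 1 higher and 2 lower in LI, and 1 higher and 3 lower in pancreas, with medians of 0.11 in BM, -0.0661 in LI, -0.11 in lung, and -0.13 in pancreas, and 11 regions were highest in 1 tissue. With the replicate number as a block, 8 promoters were higher in SI and 5 were lower in lung. The only count that moved past 1.5 times was that of distal regions lower in pancreas, with 2 in place of 1.

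At an unadjusted p, promoters numbered 3 lower in BM, 6 higher and 1 lower in LI, 11 lower in lung, 5 lower in pancreas, and 16 higher in SI, and distal regions 16 higher and 2 lower in LI, 8 higher and 8 lower in pancreas, and 6 lower in SI. With a log2 fold change above 1 as well, promoters numbered 0 higher and 0 lower in BM, 0 higher in LI, 3 lower in lung, 0 lower in pancreas, and 2 higher in SI, and distal regions 2 higher in BM, 1 higher and 0 lower in LI, 1 higher and 7 lower in lung, 1 higher in pancreas, and 8 higher in SI. Adjusted p in each contrast left 4 regions highest and 3 lowest in 1 tissue, and DESeq2 on the 4 libraries of each comparison left 4 lowest. The region with most counts per gene gave a distal median of 0.0253 in LI.

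Leaving out 1 library at a time gave these ranges. The regions that differed over tissues numbered 6 to 14 among promoters (6 without lung replicate 2) and 22 to 33 among distal regions. Promoters called higher were 0 to 2 in BM, 0 to 5 in LI, and 1 to 9 in SI, and those called lower 0 to 2 in BM, 0 to 1 in LI, 0 to 6 in lung, and 0 to 3 in pancreas. Distal regions called higher were 2 to 12 in BM, 1 to 13 in LI, 0 to 2 in lung, 1 to 7 in pancreas, and 7 to 15 in SI, and those called lower 3 to 11 in BM, 0 to 2 in LI, 0 to 12 in lung, 0 to 3 in pancreas, and 2 to 4 in SI. Regions highest in 1 tissue were 6 to 11 (11 without SI replicate 2) and lowest 4 to 10 (4 without pancreas replicate 2, 5 without BM replicate 2 or lung replicate 2). Promoter medians ran from 0.245 to 0.49 in SI, from 0.0544 to 0.12 in LI, from -0.11 to 0.12 in BM, from -0.29 to -0.12 in pancreas, and from -0.36 to -0.19 in lung. Distal medians ran from -0.0801 to -0.0324 in BM, from 0.0935 to 0.15 in LI, from -0.20 to -0.14 in lung, from -0.0875 to 0.0132 in pancreas, and from 0.0607 to 0.21 in SI. Medians of BM promoters and pancreas distal regions changed sign. The cause was not tested.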
